A study of Mus musculus with 34 samples.

Results

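Metallothionein 1 (Mt1) was followed in the livers of 13 mice, 6 kept under chronic heat stress (HS) and 7 kept at thermoneutral temperature (TN). It was the gene of the 1 spot, out of 1920 on the array, whose annotated symbol is Mt1, and so 1 of the 1019 named genes that, with 837 spots carrying no single gene name, made up 1856 measured features. Mt1 was selected on the measured values themselves, because its HS minus TN difference had the smallest p-value of all features. That difference is therefore given below as a description with no test. The tests concern other measures, namely the level of Mt1 against the reference RNA, its dependence on the dye, its differences between mice of the same group and the genes that varied with it between those mice. The p-value that led to the choice also rests on the spread between mice of a group, so the tests that use this spread are not independent of the choice.

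Metallothioneins are small cysteine-rich proteins that bind zinc and copper and can scavenge oxidants. The liver is a main site of their synthesis. Transcription of Mt1 is known to be raised by zinc through the metal-responsive factor MTF-1, by glucocorticoids through their receptor, and by the cytokines of the acute phase response, so it is widely used as a stress-responsive liver gene.

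The HS mice were exposed for 2 weeks, at 34 °C by the labels of 8 of the 14 HS arrays, starting at 27 days of age by the labels of 7 and ending at 40 days by those of 5. The labels of 2 HS arrays name the ICR strain. The TN mice ate a fescue diet free of endophyte, and their labels give no age. Labels of the HS arrays name no diet, so diet, age and any processing batch cannot be told apart from heat. Each array compared the liver RNA of 1 mouse with a mouse reference RNA, with the mouse RNA in the red dye Cy5 on 21 arrays and in the green dye Cy3 on 13. Both dyes were used for 12 mice, and F203, an HS mouse, had 1 Cy3 array only. Mice are named by their identifiers, which start with F (3 TN, 3 HS) or M (4 TN, 3 HS). The letter is used as a letter only, because 1 label of mouse M242 calls it female.

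The array carried oligonucleotides designed for rat genes, and the annotation ties the Mt1 spot to a gene record with Entrez number 24567, not to the mouse Mt1 record, 17748. Mouse Mt1 lies on chromosome 8 from 94178883 to 94180327 in GRCm38.p6, which is the position of the gene and not of the oligonucleotide. No other spot was annotated as a metallothionein, and whether the oligonucleotide separates Mt1 from its close paralogue Mt2 was not tested. Liver identity was checked with 29 measured genes of a list of 38 hepatocyte genes (albumin, apolipoproteins, clotting factors). Between 23 and 29 of them lay above the array median on each Cy5 array and between 1 and 7 on each Cy3 array, which also fixed the direction of the deposited ratios (largest exact two-sided sign test p = 0.00813). The deposited values are stated here as log2 ratios, since the sources used here do not name the base of the logarithm. With natural logarithms every fold below would lie farther from 1.

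All Mt1 values are log2 ratios of liver over reference after the median of the array was set to 0. In the TN mice the values were -3.40 (M244), -2.62 (M243), -2.01 (F236), -1.88 (F223), -1.66 (M251), -1.12 (F235) and -0.83 (M211). In the HS mice they were -1.80 (M233), -0.98 (F241), -0.81 (F222), -0.585 (M256), -0.43 (F203) and 0.05 (M242). The HS mice lay toward the upper end: 4 of the 6 were above the highest TN mouse, and 4 of the 7 TN mice were below the lowest HS mouse. The groups overlapped through M233 and F241 among the HS mice and through M251, F235 and M211 among the TN mice. M242 was the only mouse above the array median.

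**Figure D1:**
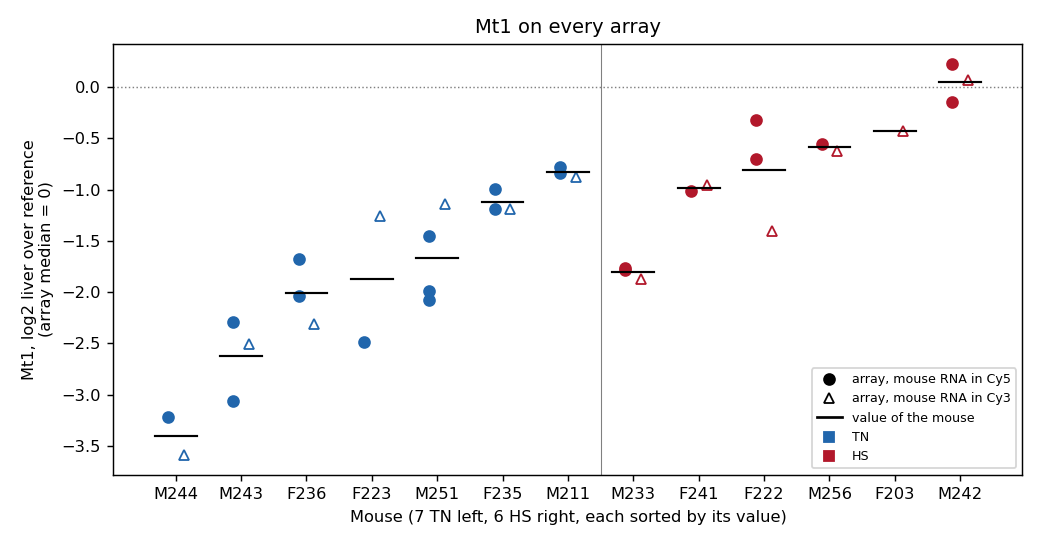
Mt1 as log2 liver over reference (array median = 0) on each of the 34 arrays, by mouse, with the 7 TN mice on the left and the 6 HS mice on the right. Filled circles are arrays with the mouse RNA in Cy5, open triangles arrays with it in Cy3, and horizontal bars the value fitted for the mouse; 4 HS mice lie above the highest TN mouse, M211.

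Over the TN mice the median was -1.88 and the mean -1.93 ± 0.87 (SD, n = 7), which is 0.262 of the reference signal. Over the HS mice the median was -0.70 and the mean -0.76 ± 0.62 (SD, n = 6), which is 0.591 of the reference. The difference of the means was 1.17 (SE 0.37), a 2.26-fold higher ratio in HS, and all 6 HS mice lay above the TN mean. This was the largest positive difference of all 1856 features, and 1 feature had a larger absolute difference. The rank is tied to the choice of Mt1, which was made on the p-value of the same difference. The median absolute difference over all features was 0.19. In this contrast limma with Benjamini-Hochberg adjustment called 0 of 1856 features (0%), and 45 features (2.42%) had an unadjusted p under 0.05. In bulk liver RNA, a different share of cells and a different amount of Mt1 RNA per cell cannot be told apart.

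HS lay above TN under either dye. The values in this paragraph come from the mice and arrays on which Mt1 was chosen. They describe the difference and are no independent support for it. Among the arrays with the mouse RNA in Cy5, the 13 TN arrays ran from -3.22 to -0.775 with a median of -1.99, and the 8 HS arrays from -1.78 to 0.23 with a median of -0.625. Among the Cy3 arrays, the 7 TN arrays ran from -3.59 to -0.88 with a median of -1.26, and the 6 HS arrays from -1.87 to 0.07 with a median of -0.785. The ranges overlapped under both dyes, with the lowest array from M244 and the highest from M242 each time. Over 11 other ways of scaling and averaging the arrays the difference lay between 0.97, from Cy3 arrays alone, and 1.25, from quantile-normalised arrays. Leaving out single mice gave 0.92 without M244 to 1.38 without M233.

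**Figure D2:**
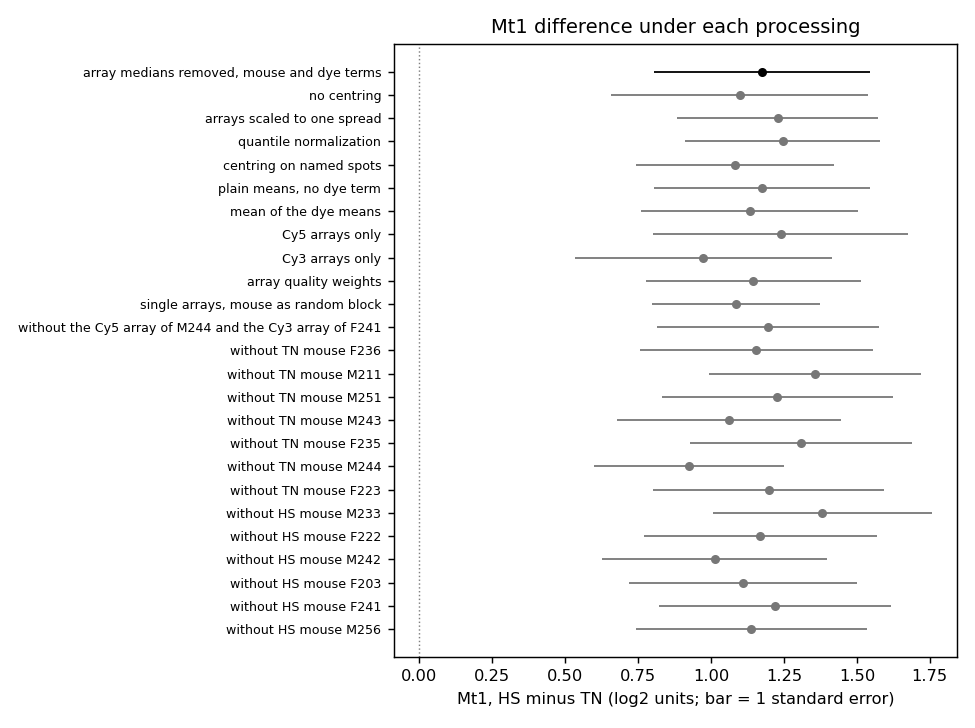
HS minus TN difference of Mt1 in log2 units under each processing and with each mouse left out; points are differences, bars 1 standard error, the black point is the value reported, and the dotted line marks no difference. The plotted differences run from 0.92, without M244, to 1.38, without M233.

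Mt1 was lower in liver than in the reference RNA. Its mean over both groups, weighted equally, was -1.35 (SE 0.19, 95% interval -1.73 to -0.96), 0.393 of the reference signal or 2.54-fold lower (limma, Benjamini-Hochberg adjusted p = 1.21e-06). It was below the array median in 12 of the 13 mice. Calls in this direction were common, with 452 of 1856 features (24.4%) lower and 447 (24.1%) higher than the reference. Mt1 was among the lower of them, with 106 features, 85 of them named genes, at a lower ratio. The value describes Mt1 relative to a reference of unstated tissue makeup and to the middle of this array, not its abundance in liver.

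The letter of the identifier was compared within the same data. The 3 F mice of TN averaged -1.67 ± 0.48 (SD) and the 4 M mice -2.13 ± 1.12. In HS the 3 F mice averaged -0.74 ± 0.28 and the 3 M mice -0.78 ± 0.94. In both groups the lowest and the highest mouse were M mice, M244 and M211 in TN and M233 and M242 in HS, so the F mice lay inside the range of the M mice. F minus M, with the group as a term, was 0.26 (SE 0.38, 95% interval -0.52 to 1.04, limma adjusted p = 0.995), in a comparison that called 1 of 1856 features (0.0539%), with 70 features (3.77%) at an unadjusted p under 0.05. The HS minus TN difference was 0.93 among F mice and 1.35 among M mice. The difference between them, F minus M, was -0.42 (SE 0.77, 95% interval -2.02 to 1.17, limma adjusted p = 0.998), and this interaction called 0 features (0%), with 22 features (1.19%) at an unadjusted p under 0.05. Neither interval is narrow: the one for F minus M reaches 1.04, close to the 1.17 between HS and TN.

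A dye effect can shift a 2-colour ratio, so each mouse was compared with itself. Cy5 minus Cy3 over the 12 mice with both dyes was -0.01 for Mt1 (SE 0.19, 95% interval -0.42 to 0.40, limma adjusted p = 0.974). Over all features 338 of 1856 (18.2%) were called for a dye difference, the median absolute difference was 0.389, and 1830 features had a larger absolute difference than Mt1. Single mice departed from 0 in both directions, from -1.23 in F223 and -0.70 in M251 to 0.45 in F236 and 0.89 in F222. The mean near 0 was thus an average over mice that differed in sign.

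The order of the mice was compared between the arrays of the 2 dyes. After the group means were subtracted, the Cy5 mean and the Cy3 array of the 12 mice correlated with r = 0.81 (permutation within groups, two-sided p = 0.00366) and Spearman's rho = 0.80 (permutation p = 0.00474). Without the 2 mice farthest from the median, M244 and M242, r was 0.65, and within the 7 TN mice alone it was 0.79. With arrays scaled to an equal spread r was 0.48 and no longer passed (permutation p = 0.133). The median of the same r over the 1848 features with enough values was 0.17, and 28 features had a higher r than Mt1. M244 was lowest and M242 highest with either dye, and M211 was the highest TN mouse with either dye.

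**Figure D3:**
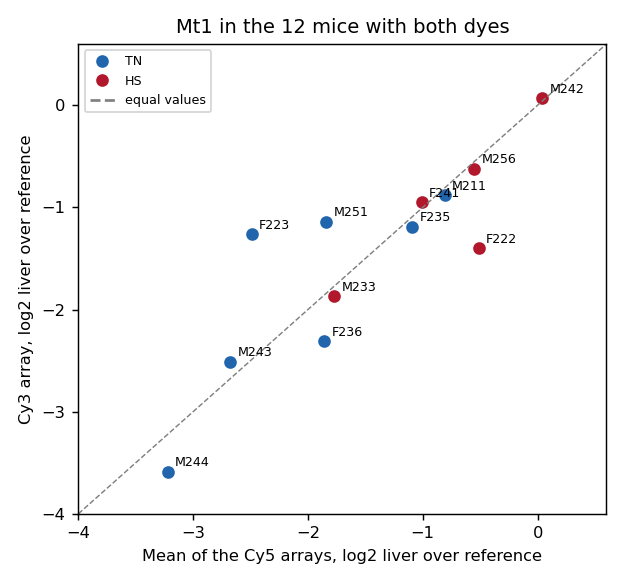
Mt1 (log2 liver over reference, array median = 0) from the Cy3 array against the mean of the Cy5 arrays for the 12 mice measured with both dyes; blue points are TN, red points HS, and the dashed line marks equal values. M244 is lowest and M242 highest with either dye, while F223, M251 and F222 lie farthest from the line.

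Replicate arrays of 1 mouse were close for Mt1. The 3 arrays of M211 gave -0.84, -0.775 and -0.88, and the 3 of M233 gave -1.76, -1.78 and -1.87. The 2 arrays of F241 gave -1.01 and -0.95, and the 2 of M256 gave -0.55 and -0.62. The arrays of each of these 4 mice differed by at most 0.11. The widest ranges came from F223, with -2.49 in Cy5 and -1.26 in Cy3, and from F222, with -0.32 and -0.70 in Cy5 and -1.40 in Cy3. Over the 12 mice with more than 1 array the range of Mt1 had a median of 0.37, from 0.06 to 1.23.

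The residual SD of Mt1 between arrays of a mouse was 0.364, against a median of 0.643 over all features, and 59 features had a smaller one. The SD of Mt1 between mice of a group was 0.770, against a median of 0.566, and 13.04% of the features had a larger one. The ratio of the 2 SDs was 2.11 for Mt1 and 0.847 for the median feature, with 4 features above Mt1. A limma moderated F-test of differences between mice of the same group, run on single arrays with the dye as a term, gave F = 7.56 for Mt1 (Benjamini-Hochberg adjusted p = 0.00479). It called 76 of 1856 features (4.09%), 30 of them named genes, and Mt1 ranked 3 by p-value, behind Gstp1, a glutathione transferase, and an unnamed spot. The heat contrast does not enter this test, which compares mice only with others of their group and takes its error from the arrays of a mouse. The spread between mice of a group also entered the p-value that chose Mt1, so the test is not independent of the choice. The test was added after the data were seen. The call was lost without M211 (adjusted p = 0.0522) and with arrays scaled to an equal spread (adjusted p = 0.0747).

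**Figure D4:**
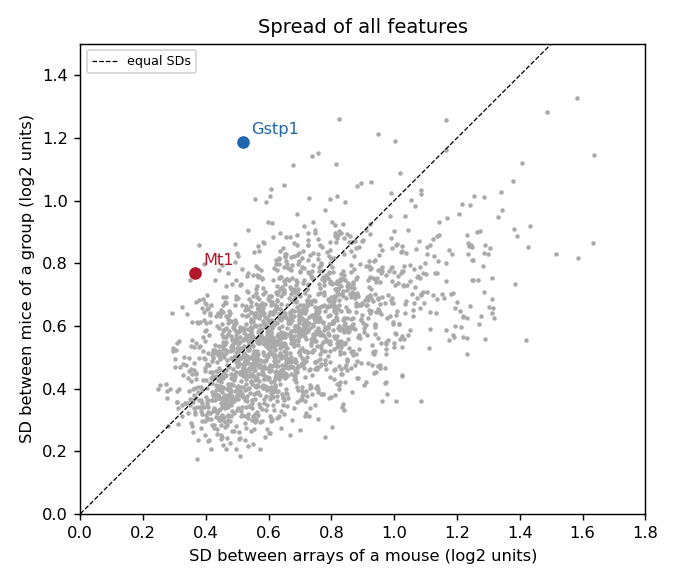
SD between mice of a group against residual SD between arrays of the same mouse, both in log2 units, with 1 point for each of the 1856 features; the dashed line marks equal SDs. Mt1 (0.364 between arrays, 0.770 between mice) lies at the upper left edge, as does Gstp1.

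Genes that varied with Mt1 between mice of the same group were looked for over the other 1855 features, with the Mt1 value of the mouse and the group as terms. Limma with Benjamini-Hochberg adjustment called 0 features in either direction (0%), and the lowest adjusted p was 0.207. At an unadjusted p under 0.05 there were 210 positive features (11.3%) and 185 negative ones (9.97%). The median r with Mt1 over all features was 0.23, with 62.9% positive; it was 0.37 over the 1018 other named genes, with 85.0% positive, and -0.27 over the 837 unnamed spots. These numbers rested on M244: without it 71 features (3.83%) had an unadjusted p under 0.05 and the median r was 0.09. M244 had the lowest Mt1 value and the highest mean of the median absolute deviations of its arrays, 1.82. That mean came from 2.46 on its Cy5 array and 1.17 on its Cy3 array. The part of M244 in the correlations beyond this was not tested. Other settings moved the count as well, to 68 features (3.67%) with arrays scaled to an equal spread, 97 (5.23%) after quantile normalisation, 74 (3.99%) when centred on named spots, and 747 (40.3%) with no centring. The Cy3 arrays alone gave 56 (3.02%), and leaving out the Cy5 array of M244 and the Cy3 array of F241 gave 315 (17.0%). Leaving out M211 gave 179 features (9.65%), leaving out M233 616 (33.2%) and leaving out M256 567 (30.6%). The genes that follow are therefore the ends of a ranking and not calls.

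The highest r belonged to Fgb, the fibrinogen beta chain, a clotting protein of the acute phase response. Its values ran from 1.19 to 2.98 in the TN mice, with a median of 1.73, and from 0.46 to 2.83 in the HS mice, with a median of 1.96. Mice high in Mt1 were high in Fgb within each group, with M211 highest and M244 lowest of the TN mice for both genes, and M242 highest and M233 lowest of the HS mice for both. The groups overlapped in Fgb, whose HS minus TN difference was -0.13 (SE 0.37). Within-group r was 0.86 (permutation p = 0.00042, 0.269 after Benjamini-Hochberg adjustment over 1855 features) and Spearman's rho was 0.85 (permutation p = 0.0007, adjusted 0.445). The r was 0.92 without M244 and M243, the 2 mice farthest from the median of the fitted Mt1 values, and 0.88 without M244 alone. The same 2 mice are meant for the genes below, so M242 stayed in. Fgb itself was not repeatable between dyes, with r = 0.03 between its own Cy5 and Cy3 values. Taken from arrays that share no hybridisation, r was 0.29 for Mt1 in Cy5 against Fgb in Cy3 and 0.61 for the reverse. Fgg and Fga, the gamma and alpha chains of the same protein, had r = -0.57 and r = 0.48 with Mt1.

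Cyb5a, cytochrome b5, an electron donor to liver desaturases and P450 enzymes, kept its r with Mt1 across dyes. Its values ran from 2.03 to 3.61 in TN, with a median of 2.79, and from 2.53 to 3.53 in HS, with a median of 2.69. The TN mice lowest in Mt1, M244 and M243, were also the lowest in Cyb5a, and the HS mice highest in Mt1, M242 and F203, were the highest in Cyb5a. Within-group r was 0.80 (permutation p = 0.00205, adjusted 0.269), rho was 0.87 (permutation p = 0.00072, adjusted 0.445), and r was 0.72 without the 2 farthest mice and 0.80 without M244. Between its own Cy5 and Cy3 values r was 0.83. Across dyes it was 0.71 and 0.72 with Mt1, but with arrays scaled to an equal spread it was 0.44. Its HS minus TN difference was 0.13 (SE 0.31), so the values of the 2 groups overlapped.

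Psmb1, a subunit of the proteasome core, had r = 0.82 (permutation p = 0.00259, adjusted 0.269), rho = 0.70 (permutation p = 0.00995, adjusted 0.451) and r = 0.61 without the 2 farthest mice. Its values ran from -1.88 (M244) to 0.06 (M211) in TN and from -1.33 to -0.30 (M242) in HS. The other 5 HS mice lay close together in Psmb1 at all Mt1 levels, and r was 0.93 within TN and 0.51 within HS. Hes1, a transcriptional repressor that Notch signalling induces, and Sec11c, a subunit of the signal peptidase, completed the 5 highest genes with r of 0.85 and 0.81. Their r fell to 0.68 and 0.65 without the 2 farthest mice, and neither repeated between its own dyes (r = -0.11 and -0.18).

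At the other end stood Hsd11b1, the enzyme that regenerates active glucocorticoid in liver, with r = -0.71 (permutation p = 0.012, adjusted 0.269) and rho = -0.53 (permutation p = 0.076, adjusted 0.460). Its TN values ran from -0.11 to 2.29 and its HS values from -0.92 to 0.77. M244, lowest in Mt1, was highest in Hsd11b1 by a wide gap, and r was -0.34 without the 2 farthest mice. Across dyes r was 0.002 for Mt1 in Cy5 and -0.90 for Mt1 in Cy3. Rpl10a, a ribosomal protein (r = -0.70), Gnai3, an inhibitory G protein subunit (r = -0.70), Hnrnpf, an RNA-binding splicing factor (r = -0.69), and Fdx1, the mitochondrial electron carrier ferredoxin (r = -0.66), followed. Without the 2 farthest mice these were -0.53, -0.36, -0.56 and -0.43.

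**Figure D5:**
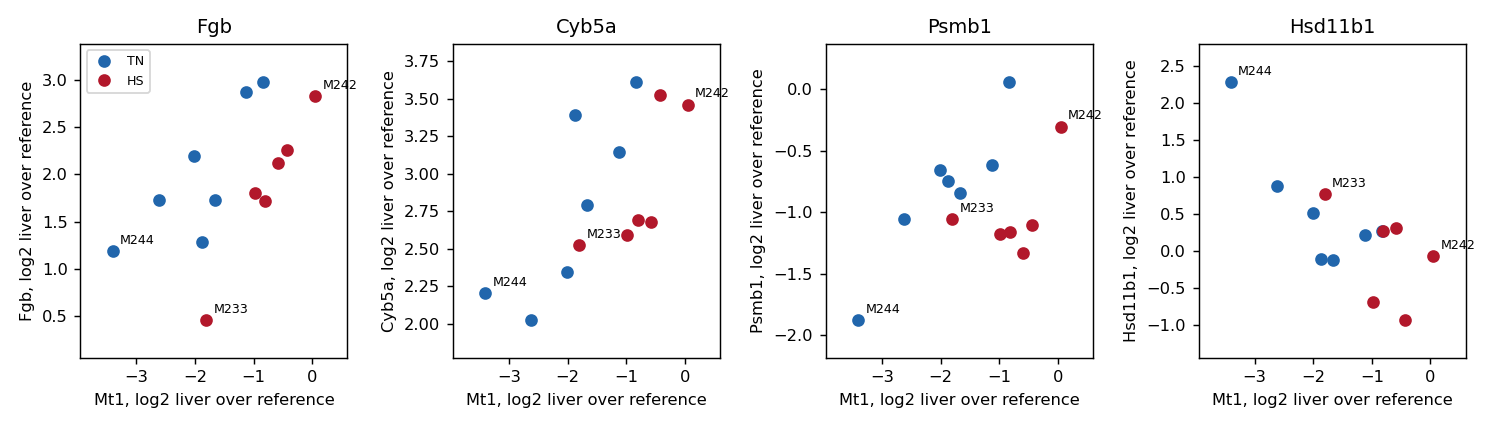
Values of Fgb, Cyb5a, Psmb1 and Hsd11b1 against Mt1 in the 13 mice, all as log2 liver over reference with the array median at 0; blue points are TN mice and red points HS mice. M244 has the lowest Mt1 value and the lowest Fgb value of the TN mice (1.19), and the highest Hsd11b1 value of all mice (2.29).

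Genes of zinc and copper handling were few on the array: 4 of the listed genes besides Mt1 were measured. Sod1, the copper and zinc superoxide dismutase, had r = 0.65 with Mt1 (limma adjusted p = 0.209), and Ccs, the chaperone that delivers its copper, had r = 0.54 (limma adjusted p = 0.278). Albumin (Alb), the main zinc carrier of plasma, had r = -0.37, and ceruloplasmin (Cp), the copper protein of plasma, had r = -0.35, which became 0.09 with no centring of the arrays. The median r of the 4 was 0.10, beside 0.37 for all named genes. Their HS minus TN differences were positive in 2 and negative in 2, with a median of -0.04 beside 0.06 for all named genes and -0.01 for all features. None was called in either comparison, and neither was any other feature (0%).

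The glucocorticoid, acute phase, antioxidant, heat shock and iron lists likewise held no call, either with Mt1 or between HS and TN. No feature at all was called in these comparisons (0 of 1855 and 0 of 1856, 0%), so this does not set the lists apart. Their counts are to be read against the named genes as a whole, of which 85.0% had a positive r with Mt1. Of 20 measured glucocorticoid-responsive genes, 18 had a positive r with Mt1 and the median was 0.32, with Cps1 (urea cycle) and Agt (angiotensinogen) both at 0.63, while Hsd11b1, the member with the smallest p, went the other way at -0.71. Of 17 acute phase genes, 13 had a positive r with a median of 0.47, led after Fgb by Itih3, a protease inhibitor heavy chain (0.73), and complement C3 (0.69). Of 32 antioxidant genes, 28 were positive with a median of 0.47, among them the peroxidase Prdx4 (0.70) and the glutathione transferase Gstk1 (0.68). Of 11 heat shock genes, 10 were positive with a median of 0.42, among them the chaperones Hsp90ab1 (0.75), Cryab (0.58) and Dnaja1 (0.48). Of 14 iron genes, 13 were positive with a median of 0.31, among them Blvra, which makes bilirubin (0.64), the iron-regulatory aconitase Aco1 (0.57) and transferrin, Tf (0.56). These medians stand against 0.37 for all named genes, with the glucocorticoid and iron lists below it. Without M244 they were 0.25 for the glucocorticoid list, 0.34 for acute phase, 0.28 for antioxidant, 0.17 for heat shock and 0.10 for iron, against 0.18 for all named genes. The positive members then numbered 17 of 20, 14 of 17, 28 of 32, 7 of 11 and 8 of 14 in that order, against 72.6% of named genes. With arrays centred on named spots, an alternative added after the data were seen, the medians were 0.03, 0.23, 0.17, 0.12 and -0.06, against 0.07. The HS minus TN differences of the same lists had medians of 0.10, 0.05, 0.08, -0.10 and 0.03 in the same order, beside 0.06 for all named genes.

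Marker lists of liver cell types were described in the same way. Over all named genes the median r was 0.37, with 85.0% positive. The 29 hepatocyte genes, which share members with the acute phase list, had a median r of 0.33 with 20 positive. Their mean level ran from 2.07 to 2.80 in TN mice and from 2.06 to 2.73 in HS mice. The 4 measured Kupffer cell genes, Clec4f, Slc11a1, Lyz2 and C1qb, had a median r of 0.53 with all 4 positive. Their mean level ran from -1.15 to -0.0003 in TN and from -0.56 to -0.09 in HS. Their HS minus TN differences were positive in 3, from -0.05 (C1qb, SE 0.27) to 0.36 (Slc11a1, SE 0.27). The median of these differences was 0.21, beside 0.06 for all named genes. It was 0.005 for the hepatocyte and -0.12 for the stellate cell genes. Of 4 stellate cell genes 3 had a positive r with Mt1, and the median r was 0.21. Without M244 the medians were 0.30 for hepatocyte, 0.31 for Kupffer cell and -0.01 for stellate cell genes, against 0.18 for all named genes. With arrays centred on named spots the medians were 0.20, 0.26 and -0.20 in that order, against 0.07. The lymphocyte gene Nkg7 had r = 0.58 and the red cell gene Hba-a1 r = 0.34, with HS minus TN differences of -0.23 and 0.39. None of the listed markers of endothelium or bile duct was among the named genes. None of these lists held a call, with Mt1 or between HS and TN, where no feature was called at all (0%). The part of cell makeup in the Mt1 values was not tested.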

How the data were processed

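The deposited table holds the authors' log ratios of Cy5 over Cy3 for each spot and array, taken here as log2. The values ran from -7.64 to 7.71 with array medians from -0.88 to 1.17, so the arrays were not centred. Per the labels' protocols, RNA was extracted with a column kit and labelled through amino-allyl dyes; the sources used here do not give any background correction or normalisation. Each array was centred on its median. Spots of a named gene were averaged, and the ratio was fitted by least squares on 13 mouse terms, signed by dye, and 1 dye term. The resulting value per mouse entered limma 3.58.1 in R 4.3.3, with p-values adjusted over all 1856 features at 0.05; the script was tested on simulated data. Replicate hybridisations were never counted as mice. The number of arrays limits the precision. Correlations used values minus group means and 100000 permutations within groups. P-values measure the spread between these mice, with the following exceptions. The F-test for differences between mice measures them against the technical spread between arrays of a mouse. The sign test counts hepatocyte genes within a single array and treats them as independent.

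Mt1, the gene lists and the tests were chosen with earlier results of these data known. Named genes are the 5 highest and 5 lowest by within-group r, all measured zinc and copper genes, and the 3 members of smallest p in each other list. Fgg and Fga are named in addition, chosen after their values were seen, as are Gstp1 and the Kupffer genes. Alternatives were centring, scaling, quantile normalisation, dye subsets, array weights and leaving out mice.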

Additional observations from a re-analysis of the deposited data

Results flagged for a closer look

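Among 54 groups of values (Mt1 and the named genes in TN or HS), 3 held a mouse far from the others of its group. The limits were Dixon's 95% values, which about 5% of groups pass by chance. The 3 of 54 groups are near that share. Psmb1 in HS had M242 at -0.30, with the next mouse at -1.06, a gap of 0.735 of the group's range. Hsd11b1 in TN had M244 at 2.29, with the next at 0.88 (0.585 of the range). Gnai3 in TN had M244 at 1.61, with the next at -0.38 (0.652 of the range). M242 had the highest and M244 the lowest Mt1 value, so each of these mice weighs on the r of that gene with Mt1. The 3 genes had been named for that r. No Mt1 value stood apart in this way in either group.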

How the results depend on the processing

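The HS minus TN difference, the level against the reference and F minus M kept their sign under all 11 alternatives. All of these reuse the arrays on which Mt1 was chosen for its HS minus TN difference. The level ran from -1.40 to -1.26, and from -1.44 to -1.22 with single mice left out. F minus M ran from 0.12 to 0.29, and from 0.03 to 0.47 with mice left out. The Cy5 minus Cy3 difference changed sign with no centring (0.34), scaled arrays (0.00718), quantile normalisation (0.13) and centring on named spots (0.0332), and ran from -0.0927 to 0.10 with mice left out. The r between dyes was 0.48 with scaled arrays (permutation p = 0.133) and 0.72 to 0.90 with mice left out. The F for differences between mice was 4.81 with scaled arrays (limma adjusted p = 0.0747) and 5.66 to 9.54 with mice left out. The interaction changed sign with scaled arrays (0.10) and quantile normalisation (0.0178), and ran from -0.93 to 0.000107 with mice left out. Features called with Mt1 numbered 1 with no centring (Fgb, limma adjusted p = 0.0472) and 0 to 0 with mice left out. Of 728 recomputed r values of named genes 726 kept their sign. On Fisher's z scale 623 stayed within 1 standard error of the reported value. Most of these genes were named for extreme r or small p in the same mice, so kept signs were likely from the start. Hes1 had 0.11 and Rpl10a -0.10 with Cy3 arrays alone. Cp became 0.09 with no centring, and Hsd11b1 0.002 for Mt1 in Cy5 against the gene in Cy3. The cause of these changes was not tested. Mt1 had 1 spot, so averaging spots could not be varied. No paired analysis was possible because the numbers in the labels count hybridisations of a mouse and pair no mice across groups.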
